A study of Homo sapiens with 21 samples.

Results

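The effect of MUC1 silencing in mammospheres was measured in 6 of the 21 RNA-seq libraries of the series, chosen by their labels alone. BT-549 is an established triple-negative breast cancer (TNBC) cell line, and its mammospheres are spheres grown in suspension culture that enrich for cells able to renew themselves. All 6 cultures were BT-549/tet-MUC1shRNA 3D cells at passage 6, which carry an shRNA against MUC1 that is expressed when doxycycline (DOX) is added. The 3 vehicle cultures received 0.1% DMSO, and the 3 silenced cultures received 500 ng/ml DOX for 10 days. Both groups therefore carry the same construct, and they differ in DOX and in what it switches on. DOX-treated cells with a non-targeting shRNA are not among the labelled groups, so an effect of DOX itself and an effect of silencing cannot be told apart within these 6 libraries. The tet-MYCshRNA line, which received the same dose of DOX at passage 8, is set beside them further on.

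MUC1 is a mucin of the apical surface of epithelia. It is cut into an extracellular mucin subunit and the transmembrane MUC1-C subunit, which also enters the nucleus and binds transcription factors. In TNBC cells MUC1-C has been tied to the epithelial-mesenchymal transition (EMT), to NF-κB, STAT3 and MYC signaling, and to chromatin complexes, and so the genes below are ordered by such functions, with glycolysis, the electron transport chain and mitochondrial DNA (mtDNA) left aside.

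The libraries held between 39652897 and 67725005 counts, and the p-values rest on the spread between the 3 cultures of a group. Vehicle libraries had 26693 to 28018 genes with at least 1 count and DOX libraries 29471 to 30905, and the share of counts on mtDNA genes was 2.61% to 2.78% with vehicle and 6.36% to 6.72% with DOX, so that neither range overlapped. Among genes with 1 to 10 counts in a library, 68.5% to 71.0% had an even count, so neighboring counts were not independent and the counting intervals below are too narrow. The labels number the cultures without saying how they were split, and the p-values measure the spread between these samples, which may be technical. The cells had the mesenchymal markers of BT-549: with vehicle, VIM was at 1076 to 1131 CPM (counts relative to library size, scaled by TMM factors), FN1 was at 9991 to 11022 CPM and ZEB1 at 308 to 338 CPM. The epithelial cadherin CDH1 had at most 2 counts in a vehicle library, ESR1 was at 0.275 to 0.470 CPM there, and EPCAM was removed by the filter on low counts.

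MUC1 (ENSG00000185499.16, chromosome 1 from 155185824 to 155192916, GRCh38) was silenced in each DOX culture. The vehicle libraries had 101, 83.7 and 86.5 CPM, and the DOX libraries had 19.9, 21.4 and 24.0 CPM, with no overlap. The mean with DOX was 24.1% of that with vehicle (log2 fold change -2.06, standard error 0.07, adjusted p = 2.97e-15, edgeR's quasi-likelihood test with Benjamini-Hochberg adjustment, as for each adjusted p below). In bulk RNA of this kind, fewer cells that express a gene and less of its RNA per cell cannot be told apart. Of the other mucins, only 7 had enough counts to be tested. MUCL1, a small secreted mucin of the breast, rose most among them, from 0.366, 0.189 and 0.314 CPM to 75, 72.4 and 68.7 CPM. The cell surface adhesion molecule MCAM and the sialomucin PODXL also rose (log2 fold changes 4.27 and 0.59), whereas the gel-forming MUC5B, chosen after its values were seen, fell from a low level of 0.368 CPM (log2 fold change -1.79). Of the list 2 genes fell, and 1 did so without vehicle replicate 2.

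Of 19220 genes tested, 62.2% had an adjusted p below 0.1, and 8.82% were called, for which the log2 fold change also had to lie beyond 1.5 in either direction. Genes called higher made up 5.74% and genes called lower 3.08%. The groups of 3 libraries did not overlap for 62.8% of all genes. Gene lists are described with a lower bar: a gene "rose" or "fell" where its adjusted p was below 0.1 and its fold change above 1.5. By this rule 17.6% of all genes rose and 14.6% fell, with a median log2 fold change of 0.02, and each list below is to be read against these shares. A gene near 0 in one group passed the filter on low counts only through the other group and had to differ, so the counts and medians of lists with such genes are descriptions. When libraries were scaled by their size alone, the median of all genes moved up by 0.17, and 1349 of 1807 called genes were higher with DOX, against 1103 of 1695 with TMM factors.

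**Figure D1:**
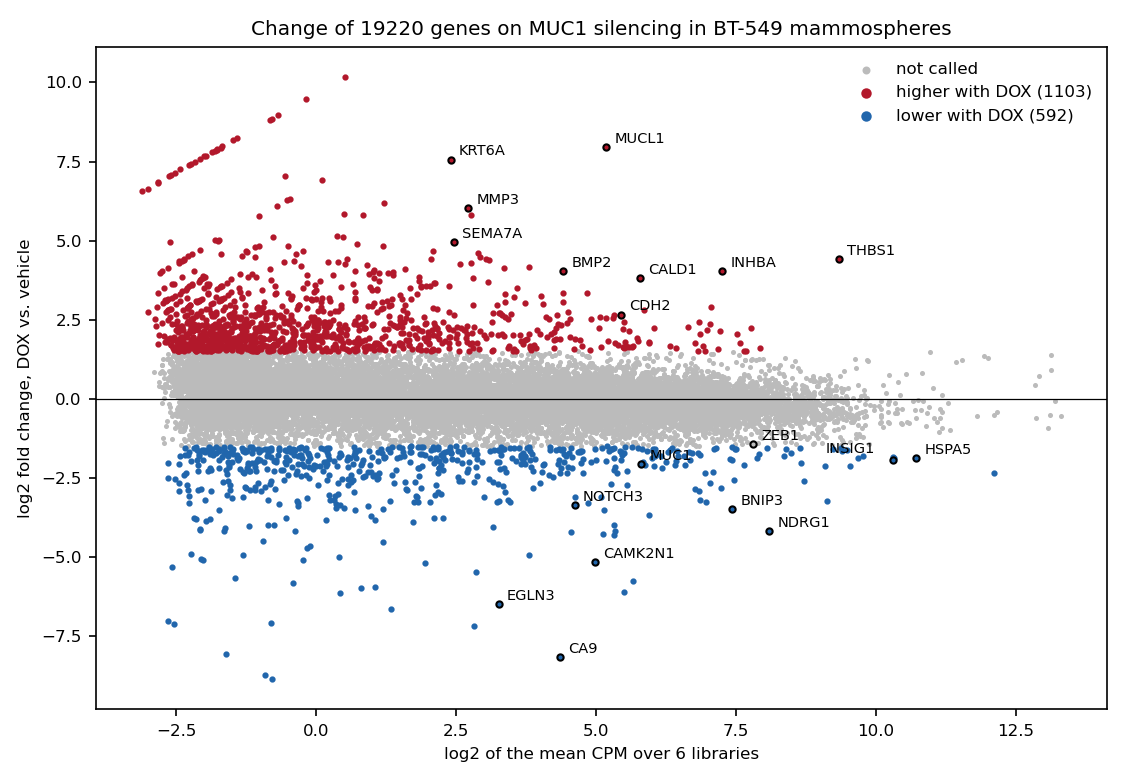
Each point is 1 of the 19220 genes tested, with the log2 of its mean CPM over the 6 libraries on the x axis and its log2 fold change (DOX vs. vehicle) on the y axis. Red points are the 1103 genes called higher and blue points the 592 called lower; CA9 and EGLN3 lie far below the other genes of their level, and THBS1 and INHBA stand out among the well expressed genes that rose. The straight row of points at the upper left holds genes with a count of 0 in every vehicle library, whose fitted fold changes are set by the prior count.

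The largest changes are given among called genes with a mean normalized count of at least 100 and groups that did not overlap. Of these CA9, the cell surface carbonic anhydrase that is a standard marker of hypoxia, fell most, from 50.2, 34.1 and 37.9 CPM to 0.0358, 0.281 and 0.0468 CPM (log2 fold change -8.15, standard error 0.24, adjusted p = 1.54e-16). EGLN3, a prolyl hydroxylase that marks HIF subunits for destruction, fell from 24.1, 14.4 and 18.4 CPM to 0.0896, 0.394 and 0.0702 CPM. In both genes the DOX libraries were close to 0 and no vehicle library was below 14.4 CPM. CAMK2N1, an inhibitor of CaM kinase II, fell from 66.9, 51.2 and 66.7 CPM to 1.40, 1.97 and 1.78 CPM (log2 fold change -5.15), and KCND1, a voltage-gated potassium channel, from 86.2, 74.1 and 69.0 CPM to 3.62, 4.39 and 3.47 CPM (log2 fold change -4.30). The others among the 12 largest falls were PNCK, a calcium-dependent kinase, the glutamate transporter SLC1A6, the liprin PPFIA4, the myeloid receptor TREM1, TCAF2, TMEM45A and the long noncoding RNAs LINC03047 and LINC01141, with log2 fold changes between -7.18 and -4.26. PTGS2, which encodes the prostaglandin synthase COX-2 and was chosen after its values were seen, had a log2 fold change of -4.20. CA9 has 35.7% of its exon bases opposite another annotated gene.

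By the same limits MUCL1 rose most, followed by the keratin KRT6A, which went from at most 0.0947 CPM with vehicle to 12.3, 10.7 and 8.59 CPM with DOX and passed the filter on low counts only through the DOX libraries. MMP3, the matrix metalloproteinase stromelysin-1, rose from 0.0522, 0.142 and 0.353 CPM to 14.3, 11.0 and 13.6 CPM (log2 fold change 6.02). THBS1, a matrix glycoprotein that activates latent TGF-β and restrains angiogenesis, rose from 58.6, 51.0 and 63.0 CPM to between 1212 and 1264 CPM, the largest gain in abundance of the genes with so strong a change (log2 fold change 4.43, standard error 0.06, adjusted p = 5.21e-21). Groups that do not overlap were a condition of this choice. GJA5, a connexin, SEMA7A, a membrane-bound semaphorin, SFN, the 14-3-3 protein of stratified epithelia, GDF6, a BMP-family ligand, DTX4, a ubiquitin ligase of the NOTCH pathway, and the tetraspanin TSPAN1 rose with log2 fold changes from 4.41 to 6.18. Like KRT6A, the genes MMP3, GJA5 and SFN passed the filter on low counts only through the DOX libraries. PSG5 and PSG1, pregnancy-specific glycoproteins that are normally made by the trophoblast, completed the 12 (log2 fold changes 5.81 and 4.48).

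Other members of the PSG family were looked up after these values were seen. PSG4 rose from 0.332 to 0.393 CPM with vehicle to 7.43 to 8.80 CPM with DOX, and PSG9 from 0.474 to 1.47 CPM to 2.81 to 3.93 CPM. PSG2, PSG3, PSG7 and PSG8 had at most 5 counts in a vehicle library and were tested only because of their DOX libraries, and PSG11 did not pass (adjusted p = 0.581, log2 fold change 0.37). Members that the filter removed are not described. These genes are close paralogs on chromosome 19 and reads could have been split or shared between them, so the share of each member is uncertain.

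The largest changes in CPM were those of highly expressed genes of varied function, with genes of glycolysis, electron transport and mtDNA left out. Among the 8 largest falls in CPM were FTL, the ferritin light chain, SCD and FASN, the desaturase and synthase of fatty acids, FN1 (fibronectin), HSPA5, the main chaperone of the endoplasmic reticulum (ER), the elongation factor EEF1A1, the ribosomal protein RPL10 and the protease CTSB. HSPA5 fell by the largest factor of these, from 2777, 2851 and 2296 CPM to 731, 751 and 700 CPM, and SCD, with 11723 to 12694 CPM in vehicle libraries, had 7824 to 8544 CPM with DOX (log2 fold change -0.55). SCD, FN1 and CTSB did not pass the fold limit. FTL, EEF1A1 and RPL10 have between 16 and 49 pseudogenes named after them, and their reads may be lost or counted elsewhere, and 50.5% of the exon bases of RPL10 lie opposite another gene. The 8 largest gains were those of the nuclear noncoding RNA MALAT1, THBS1, the collagen COL1A2, the heterochromatin protein CBX5, the thiamine transporter SLC19A2, the peptidase ANPEP, the annexin ANXA5 and the metallothionein MT2A, and those other than THBS1 had log2 fold changes between 0.43 and 1.26. MALAT1 had 5171, 6861 and 6849 CPM with vehicle and 8098, 8196 and 9100 CPM with DOX, so that its groups were near each other.

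A few genes appeared or disappeared. In 17 genes, each vehicle library had at most 3 counts and each DOX library at least 30, and in 4 genes the reverse held. S100A8, a calcium-binding protein of myeloid cells and inflamed squamous epithelium, had 0 counts in each vehicle library and 167, 210 and 114 counts with DOX, which is at least 41.4-fold higher when a floor of 3 counts per library is used. The small heat shock protein HSPB8 was at least 25.3-fold higher on the same floor. APOA2, SLC24A4 and CALB2 had 2 counts in a single vehicle library each and 52 to 192 counts in DOX libraries (for APOA2, a ratio of 146, 95% exact binomial interval 40.3 to 1214, counting error only). In the other direction PRTN3, a serine protease of granulocytes, had 52, 48 and 49 counts with vehicle and none with DOX, at least 20.8-fold lower, and CBFA2T3, a transcriptional corepressor, was at least 19.2-fold lower. ISM2 and SPOCK3 kept at most 3 counts in a DOX library. Long noncoding RNAs were called higher more often than lower: 268 of 3245 tested were called higher and 68 lower, beside 709 and 460 of 13310 protein-coding genes, and their median log2 fold changes were 0.36 and -0.03.

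Cells sense oxygen through prolyl hydroxylases that mark the HIF-1α and HIF-2α proteins for destruction. When oxygen is short, HIF proteins pair with ARNT and bind the core sequence ACGTG or GCGTG near genes for pH control, blood vessel growth, matrix crosslinking and mitophagy. The hypoxia list, which leaves out glycolytic enzymes, was the most uniform of the 39: of 34 members, all of them tested, 31 fell and 0 rose, with a median log2 fold change of -1.62, where 14.6% of all genes fell and the median of all genes was 0.02. With library size alone 30 fell.

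Among the targets, NDRG1, a stress gene induced by HIF, fell from 640, 411 and 503 CPM to 26.1, 34.5 and 23.8 CPM (log2 fold change -4.19, standard error 0.13, adjusted p = 3.40e-16). BNIP3, a mitophagy receptor, fell from 360, 294 and 298 CPM to 26.8, 30.9 and 27.1 CPM, and its relative BNIP3L fell with a log2 fold change of -1.42. BNIP3 has 44 pseudogenes named after it. VEGFA, the main growth factor of blood vessels, fell from 630, 495 and 529 CPM to 158, 180 and 169 CPM (log2 fold change -1.71, adjusted p = 1.25e-14). The vehicle and DOX libraries did not overlap in any of these genes, as in 62.8% of all genes. Among the vehicle libraries, replicate 1 was the highest in each.

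The collagen-modifying enzymes of the list, named after their values were seen, fell together: P4HA1 and P4HA2, the catalytic subunits of collagen prolyl hydroxylase, had log2 fold changes of -2.33 and -1.91, and LOX, which crosslinks collagen and elastin, fell from 1208 to 1504 CPM with vehicle to 353 to 441 CPM. Also after their values were seen, HILPDA, an inhibitor of lipolysis on lipid droplets (log2 fold change -2.85), CA12, a second carbonic anhydrase of the cell surface (-2.25), ERO1A, the oxidase that renews disulfide exchange in the ER (-2.13), KDM3A, a histone demethylase (-1.65), DDIT4, an inhibitor of mTORC1 (-1.38), the peptide hormone ADM (-1.26) and the circadian repressor BHLHE40 (-1.25) are named as examples. The members that did not pass were ANGPTL4, with a log2 fold change of -0.51, and the HIF subunits HIF1A and EPAS1. HIF1A had 499, 511 and 515 CPM with vehicle and 468, 447 and 453 CPM with DOX (log2 fold change -0.16), a sign that turned to 0.01 with library size alone, and EPAS1, which encodes HIF-2α, had 561, 530 and 531 CPM and then 675, 660 and 641 CPM (log2 fold change 0.29). HIF3A fell from 2.51, 3.24 and 3.75 CPM to 0.502, 0.928 and 0.796 CPM. A second gene overlaps 55.8% of the exon bases of EGLN1 on its own strand, and its fall (log2 fold change -0.99) is uncertain.

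The sequences before the start sites of 3 hypoxia genes that fell are given to show where the HIF core lies, with its letters, on either strand, in capitals. They are RefSeq promoters of build GRCh38.p14, read 5′ to 3′ on the strand of the gene and limited to bases before both the RefSeq and the GENCODE start. CA9 is from chr9:35673678-35673927 on the plus strand, BNIP3 from chr10:131981968-131982173 on the minus strand and BHLHE40 from chr3:4979187-4979436 on the plus strand.
CA9: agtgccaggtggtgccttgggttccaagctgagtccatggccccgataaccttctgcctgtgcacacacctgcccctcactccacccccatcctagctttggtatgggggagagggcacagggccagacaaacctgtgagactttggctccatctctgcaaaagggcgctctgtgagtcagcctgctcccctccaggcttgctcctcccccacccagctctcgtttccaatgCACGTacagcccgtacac
BNIP3: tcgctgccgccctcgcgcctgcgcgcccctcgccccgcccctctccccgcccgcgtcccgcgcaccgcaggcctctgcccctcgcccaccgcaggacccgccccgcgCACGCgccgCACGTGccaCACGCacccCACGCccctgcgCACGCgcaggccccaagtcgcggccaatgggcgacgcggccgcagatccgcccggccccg
BHLHE40: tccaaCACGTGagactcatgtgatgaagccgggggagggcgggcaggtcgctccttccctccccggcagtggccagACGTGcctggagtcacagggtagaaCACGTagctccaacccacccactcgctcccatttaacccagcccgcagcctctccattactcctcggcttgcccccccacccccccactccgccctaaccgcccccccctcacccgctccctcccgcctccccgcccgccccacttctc

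CA9 held 1 match, 14 to 18 bases before its start, BNIP3 held 6 (4 of GCGTG and 2 of ACGTG, the latter overlapping on opposite strands) and BHLHE40 held 4 of ACGTG, of which a pair overlapped in the same way. RefSeq promoters were matched for 30 of the 34 members by symbol, and 17 of them had ACGTG on either strand within 250 bases before the start, whereas 18.7% of all 27305 promoters and 22.9% of those of tested genes did. GCGTG was found in 17 of the 30, in 31.9% of all promoters and in 44.1% of those of tested genes. A match is a description of the letters and not of binding.

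**Figure D2:**
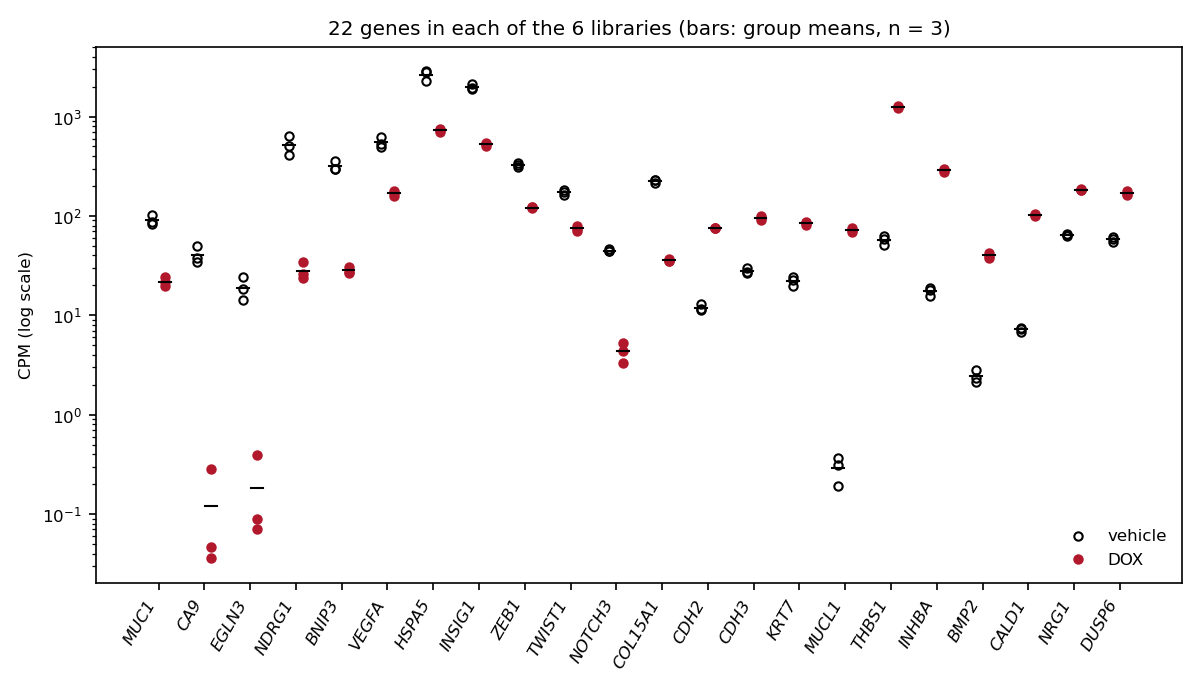
The y axis gives the CPM of 22 genes on a log scale, with open circles for the 3 vehicle libraries, red circles for the 3 DOX libraries and bars for group means. For each gene shown the groups do not overlap, as for 62.8% of all genes, and the DOX libraries of CA9 and EGLN3 lie below 0.4 CPM.

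The ER folds secreted and membrane proteins, and its stress sensors IRE1 (ERN1), ATF6 and PERK raise chaperones and, through ATF4, amino acid enzymes. Of 24 ER chaperone and quality control genes 15 fell and 0 rose, with a median log2 fold change of -0.71. HSPA5 fell by 1.86 on the log2 scale (standard error 0.06, adjusted p = 5.85e-16). DNAJB9, a cochaperone of HSPA5, HERPUD1, a degradation factor, and HSP90B1, the HSP90 of the ER, fell with log2 fold changes of -1.46, -1.26 and -1.17. XBP1 and ERN1, named after their values were seen, fell by 0.69 and 1.0 on the log2 scale, but ATF6 did not fall and had a log2 fold change of 0.41. CREB3L1, an ER-bound transcription factor of collagen secretion outside the list, was chosen later and went from 18.7, 19.7 and 19.6 CPM to 1.94, 1.98 and 2.46 CPM (log2 fold change -3.20).

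Promoters of 3 ER genes that fell are shown because they hold the ER stress element, which is CCAAT, 9 bases of any kind and CCACG, with the fixed letters in capitals. HSPA5 is from chr9:125241383-125241593 on the minus strand, CALR from chr19:12938359-12938577 on the plus strand and XBP1 from chr22:28800598-28800819 on the minus strand, from RefSeq, build GRCh38.p14.
HSPA5: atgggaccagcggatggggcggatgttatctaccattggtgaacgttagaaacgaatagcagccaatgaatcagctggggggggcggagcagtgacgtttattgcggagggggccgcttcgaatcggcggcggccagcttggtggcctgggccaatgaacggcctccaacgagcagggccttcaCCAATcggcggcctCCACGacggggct
CALR: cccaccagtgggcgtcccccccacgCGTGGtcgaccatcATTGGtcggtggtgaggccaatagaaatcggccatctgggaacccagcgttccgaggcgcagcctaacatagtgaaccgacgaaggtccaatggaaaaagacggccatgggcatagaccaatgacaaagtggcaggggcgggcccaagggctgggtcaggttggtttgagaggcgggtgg
XBP1: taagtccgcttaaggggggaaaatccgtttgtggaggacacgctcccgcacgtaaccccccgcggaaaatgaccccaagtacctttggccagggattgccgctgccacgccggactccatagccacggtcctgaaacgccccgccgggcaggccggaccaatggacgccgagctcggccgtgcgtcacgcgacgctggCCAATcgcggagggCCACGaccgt

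This element was found on either strand in 6 of the 22 members with a RefSeq promoter, 5 of which fell, and in 22 of all 27305 promoters (0.0806%). The members were HSPA5, HSP90B1, CALR, CANX and XBP1, which fell, and CRELD2, which did not.

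The integrated stress response, in which ATF4 raises genes of amino acid supply, showed a like pattern. Of 32 ATF4 genes 21 fell and SLC7A11 rose, with a median log2 fold change of -0.78, and 2 rose without DOX replicate 3 and 3 with library size alone. ATF4 itself fell from 268, 262 and 222 CPM to 153, 153 and 140 CPM (log2 fold change -0.75, standard error 0.06, adjusted p = 6.29e-10), and DDIT3, the proapoptotic factor CHOP, fell from 5.98, 7.41 and 7.07 CPM to 3.80, 2.59 and 2.29 CPM, with 31.6% of its exon bases opposite another gene. The pseudokinase TRIB3 had a log2 fold change of -1.45, the alanine aminotransferase GPT2 of -1.57 and the lipoprotein receptor VLDLR of -1.50. ASNS, asparagine synthetase, fell most (log2 fold change -2.08) and is overlapped on its own strand over 49.3% of its exon bases. PHGDH, PSAT1 and SHMT2, enzymes of serine and glycine synthesis named after their values were seen, fell with log2 fold changes of -1.42, -1.08 and -1.04. SLC7A11, the cystine importer, rose from 40.3, 46 and 43.0 CPM to 78.9, 72.6 and 79.9 CPM. The sequence TTNCATCA, a part of the amino acid response element, was found in 4 of 26 matched promoters of the list and in 3.19% of all promoters.

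**Figure D3:**
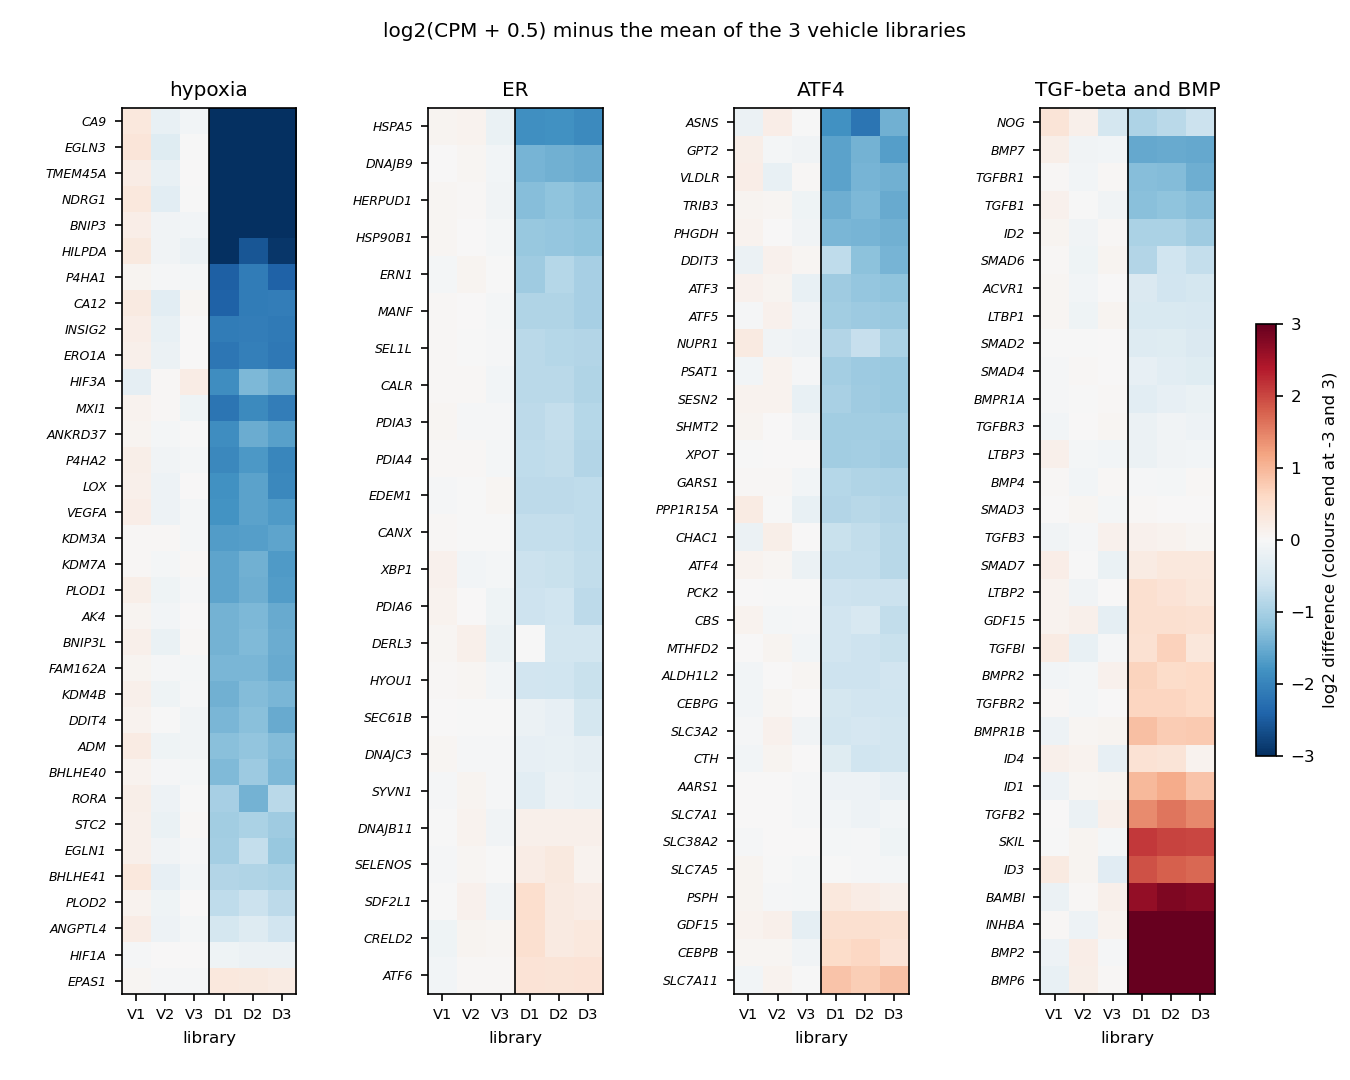
Each row is a tested member of the hypoxia, ER chaperone, ATF4 or TGF-β and BMP list (1 member of the last is not shown), and each column a library (V1 to V3 vehicle, D1 to D3 DOX), colored by log2(CPM + 0.5) minus the mean of the vehicle libraries. In the first panel 31 of 34 rows fell, whereas the last panel holds 11 genes that rose and 6 that fell.

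Other stress lists moved less. Of 19 heat shock and mitochondrial chaperones HSPB8 and HSPH1 rose and CRYAB, HSP90AB1 and LONP1 fell. Only 1 rose without vehicle replicate 2, without DOX replicate 2 or in a fit of all 21 libraries, and 1 fell with library size alone. NRF2 targets were divided, with 4 rising and 6 falling of 27, and with library size alone 7 rose and 3 fell. The efflux pumps ABCC3 and ABCC2 rose with log2 fold changes of 1.71 and 1.16, as did GCLC and SLC7A11, while FTL, the reductase AKR1C3, the transketolase TKT and NFE2L2, the gene of NRF2 itself, fell by 0.74 to 0.95 on the log2 scale. The classic targets NQO1 and HMOX1 did not pass the fold limit (log2 fold changes -0.17 and 0.21). Of 33 lysosome and autophagy genes 8 fell and 3 rose. MAP1LC3B, the autophagosome protein LC3B, fell from 362, 388 and 356 CPM to 102, 105 and 97.0 CPM, and the hydrolases GAA and NEU1 and the regulator TFEB fell with log2 fold changes of -1.74, -1.60 and -1.29. The lysosomal channel MCOLN1, the proton pump subunit ATP6V0D1 and the protease CTSD rose by 0.62 to 0.95 on the log2 scale, and LAMP1 had a log2 fold change of 0.05. The rises numbered 5 without vehicle replicate 1, vehicle replicate 2 or DOX replicate 3, and 6 with library size alone. Among metallothioneins and glucocorticoid targets MT1F, MT1E and SGK1 rose and TSC22D3, PER1 and MT1M fell, of 17 tested, and FKBP5 had a log2 fold change of 0.14.

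Cholesterol synthesis is driven by SREBP-2, which INSIG1 holds in the ER when sterols are plentiful. Of 27 tested genes of cholesterol synthesis and uptake 12 fell and 2 rose, with a median log2 fold change of -0.52, and with library size alone 6 fell. Only 1 rose without vehicle replicate 2, without DOX replicate 1 or in a fit of all 21 libraries. INSIG1 fell most, from 2143, 1945 and 1899 CPM to 536, 539 and 508 CPM (log2 fold change -1.92, standard error 0.05, adjusted p = 1.01e-17). MSMO1, a sterol oxidase, HMGCS1, the first committed synthase, and IDI1, an isomerase, fell with log2 fold changes of -1.61, -1.57 and -1.14. ABCA1, which exports cholesterol, rose from 15.5, 16.5 and 15.5 CPM to 40.3, 42.0 and 40.1 CPM. The sterol element TCACNCCAC was found in 1 of 20 matched promoters of the list and in 0.875% of all promoters.

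Fatty acid genes went partly the same way, with 5 of 20 falling and 2 rising (1 without DOX replicate 1). FADS1, the desaturase of polyunsaturated fatty acids, fell from 1332, 1249 and 1283 CPM to 351, 361 and 347 CPM (log2 fold change -1.87, adjusted p = 2.15e-18). FASN, ACSS2, which makes acetyl-CoA from acetate, ACLY, which makes it from citrate, and FADS3 fell by 0.71 to 1.0 on the log2 scale. The elongases ELOVL7 and ELOVL4 rose with log2 fold changes of 1.0 and 0.72.

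BT-549 cells are mesenchymal, and the EMT list asks whether that state changed. Of 19 tested EMT factors and mesenchymal proteins 8 fell and 4 rose, with a median log2 fold change of -0.06 that became 0.10 with library size alone. Of the transcription factors in the list, ZEB1 fell from 325, 308 and 338 CPM to 123, 122 and 119 CPM (log2 fold change -1.41, standard error 0.04, adjusted p = 3.94e-16), ZEB2 from 158, 168 and 178 CPM to 58.3, 61.5 and 61.0 CPM, and TWIST1 from 175, 183 and 161 CPM to 74.2, 80.1 and 71.4 CPM. SNAI2, chosen after its values were seen, fell by 0.76 on the log2 scale, but SNAI1, at 1.20 to 1.66 CPM with vehicle, rose by 0.62, a call that was lost in a fit of all 21 libraries (adjusted p = 0.155). The factors TCF4, TWIST2 and PRRX1, also chosen later, had log2 fold changes of 0.48, 0.19 and -0.06 and did not pass the fold limit. The collagen oxidase LOXL2 and the calcium-binding protein S100A4 fell with log2 fold changes of -1.41 and -1.23. CDH2, the N-cadherin that mesenchymal cells carry, rose from 12.9, 11.6 and 11.3 CPM to 75.2, 75.4 and 75.8 CPM (log2 fold change 2.67, adjusted p = 4.71e-18), as did the cadherin CDH11 and the matrix protein POSTN. VIM had a log2 fold change of 0.18.

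Of 12 tested epithelial genes 6 rose and CLDN7 fell, with a median log2 fold change of 0.80. Of the rises CDH1, KRT8 and KRT18 had at most 0.0947 CPM in a vehicle library. They were tested only because of their DOX libraries, so their direction was fixed by the filter and the count and median are descriptions. The placental cadherin CDH3 rose from 29.7, 26.6 and 27.3 CPM to 96.3, 99.1 and 90.1 CPM (log2 fold change 1.78), and the tight junction genes OCLN and MARVELD2 rose from levels of 0.758 to 6.92 CPM. CDH1 rose from 2, 0 and 2 counts to 13, 21 and 18 counts, a ratio of 10.1 (95% exact binomial interval 3.71 to 38.4, counting error only), and reached at most 0.421 CPM. CLDN7, a claudin, fell from 4.42 to 4.69 CPM with vehicle to 0.323 to 0.647 CPM.

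Keratins, the intermediate filaments of epithelia, are a list of 20, of which 12 were tested, 10 rose and KRT10 fell. Of the rises 7 were of genes with at most 0.237 CPM in a vehicle library (KRT6A, KRT6B, KRT6C, KRT8, KRT18, KRT81 and KRT86), which were tested only because of their DOX libraries, so their direction was fixed by the filter. The median log2 fold change of the 12 tested keratins was 3.14, or 2.71 with the 2 genes that had no vehicle counts set at the floor, and when at least 10 counts were required in every library 3 rose and the median was 0.98. KRT5, the keratin of basal cells, rose from 1.18, 1.63 and 0.825 CPM to 14.9, 16.6 and 15 CPM, and KRT7, of simple epithelia, from 22.9, 19.7 and 24.3 CPM to 84.4, 87.0 and 81.6 CPM. KRT80 rose by 0.93 on the log2 scale and KRT10, of the upper epidermis, fell by 1.01. KRT6B and KRT6C, named after their values were seen, had no counts with vehicle and were at least 8.21-fold and 7.19-fold higher, but they are near copies of KRT6A and reads may have moved between them. KRT8 and KRT18, which have 51 and 68 pseudogenes named after them, reached 1.17 to 1.52 and 0.819 to 0.986 CPM.

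Stem cell markers had no common direction, with 3 rising and 4 falling of 14 tested. CD44, the hyaluronan receptor used to sort breast cancer stem cells, had 630, 613 and 628 CPM with vehicle and 634, 605 and 617 CPM with DOX (log2 fold change -0.01, and 0.16 with library size alone). CD24 fell from 5.59, 4.24 and 4.75 CPM to 1.0, 1.91 and 1.64 CPM, the aldehyde dehydrogenase ALDH2 fell by 1.39 and the polycomb protein BMI1 by 0.79 on the log2 scale, and THY1 fell by 0.69. SOX9, ITGA6 and, at 0.478 CPM with DOX, POU5F1 rose. SOX2, NANOG and PROM1 had too few counts to be tested.

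In the list of markers of other cell types, 8 of 17 genes were tested and 3 rose: the luminal factors GATA3 and FOXA1 and the stromal LUM. Summed over the tested genes their level was 14.9 to 17.6 CPM with vehicle and 16.2 to 18 CPM with DOX, most of it DCN at 8.93 to 11.7 CPM, and the leukocyte markers CD14 and CD68 lay between 0.157 and 0.699 CPM in all 6 libraries, and PTPRC, the common leukocyte antigen, was removed by the filter on low counts. Their part in the other results was not tested. FOXA1 was no longer called when vehicle replicate 2, vehicle replicate 3 or DOX replicate 3 was left out (adjusted p 0.114 to 0.151).

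Collagen genes changed in both directions. Of 26 tested collagens 9 fell and 8 rose, with a median log2 fold change of -0.07, and 5 rose where each library had to hold 10 counts. Of the rises COL7A1, COL10A1 and COL14A1 had at most 0.236 CPM in a vehicle library and were tested only because of their DOX libraries. COL6A1, of the beaded filaments around cells, fell from 1073, 936 and 941 CPM to 350, 363 and 350 CPM, and COL15A1, of basement membrane zones, from 232, 214 and 230 CPM to 34.9, 35.3 and 36.7 CPM (log2 fold change -2.66, adjusted p = 1.56e-19). The fibril collagens COL11A1 and COL27A1 fell by 3.36 and 3.02 on the log2 scale from low levels. COL1A2, of type I collagen, rose from 1064 to 1122 CPM with vehicle to 1809 to 1944 CPM, while its partner chain COL1A1 had a log2 fold change of 0.48. COL4A1 and COL4A6 of basement membranes and COL12A1 rose with log2 fold changes of 0.85, 1.41 and 0.60. Outside the list, the matrix protein TNC and the scavenger receptor LRP1, chosen after their values were seen, fell by 1.55 and 2.92 on the log2 scale.

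Integrins and laminins rose in 9 and fell in 4 of 25. ITGA2, the α2 subunit of a collagen receptor, rose from 0.784, 0.379 and 0.785 CPM to 12.9, 12.6 and 13.3 CPM (log2 fold change 4.30, adjusted p = 9.17e-15), and ITGB5, part of a vitronectin receptor, rose from 40.0, 34.0 and 33.9 CPM to 195, 196 and 187 CPM. LAMB3, a chain of the laminin that anchors epidermis, rose by 2.74 and ITGB8, which activates latent TGF-β, by 3.14 on the log2 scale. The falls were those of ITGA4, a fibronectin receptor subunit, and of the laminin chains LAMB1, LAMA5 and LAMB2, between 1.05 and 1.94 on the log2 scale. ITGA4 has 26.4% of its exon bases opposite another gene.

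Of 19 tested metalloproteinases and TIMPs 8 rose and 3 fell. Beside MMP3, the aggrecanase ADAMTS5, the membrane-bound MMP15 and the inhibitor TIMP4 rose with log2 fold changes of 3.45, 1.64 and 1.66, and MMP11, the inhibitor TIMP1 and MMP17 fell with -2.73, -1.41 and -1.29. TIMP1 was the most abundant of the genes just named, at 317 to 365 CPM with vehicle and 116 to 137 CPM with DOX. MMP14, chosen after its values were seen, rose from 209 to 254 CPM with vehicle to 520 to 531 CPM with DOX.

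Actin-binding genes of contractile cells rose in 5 and fell in 2 of 21 (1 fell with library size alone). CALD1, caldesmon, rose from 7.26, 6.82 and 7.52 CPM to 105, 99.6 and 103 CPM (log2 fold change 3.83, standard error 0.06, adjusted p = 2.34e-20), and TPM1, a tropomyosin, from 8.44, 8.81 and 11.4 CPM to 36.5, 35.5 and 39.3 CPM. LIMA1, ACTN4 and TAGLN, overlapped by another gene over 38.1% of its exon bases, also rose, and TPM4 and FLNA, at 685 and 1878 CPM on average with vehicle, fell by 0.79 and 0.74 on the log2 scale. The targets of YAP and TEAD, the effectors of the Hippo pathway, had 4 rises and 6 falls among 23. CCN1, a matricellular protein, rose by 0.99 on the log2 scale, with DOCK5, TGFB2 and NUAK2 rising by 1.41 to 1.61, whereas its relative CCN2 had a log2 fold change of -0.26 and ASAP1, GADD45A, FOXF2 and IGFBP3 fell by 1.10 to 1.57.

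Genes of coagulation, plasmin and complement rose in 7 and fell in 6 of 19. The plasminogen activator urokinase, PLAU, rose from 52.3, 53.9 and 47.9 CPM to 129, 136 and 127 CPM. Its inhibitor SERPINB2 and the complement shield CD59 rose with log2 fold changes of 1.45 and 1.22. The complement genes C1R and SERPING1 fell by 1.16 and 1.74, and THBS2, a relative of THBS1, fell by 1.11 on the log2 scale. The complement gene C3, chosen after its values were seen, rose by 1.15 on the log2 scale from 1.04 to 1.38 CPM with vehicle. PLAU and THBS2 have about 31% of their exon bases opposite another gene (31.0% and 31.2%).

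**Figure D4:**
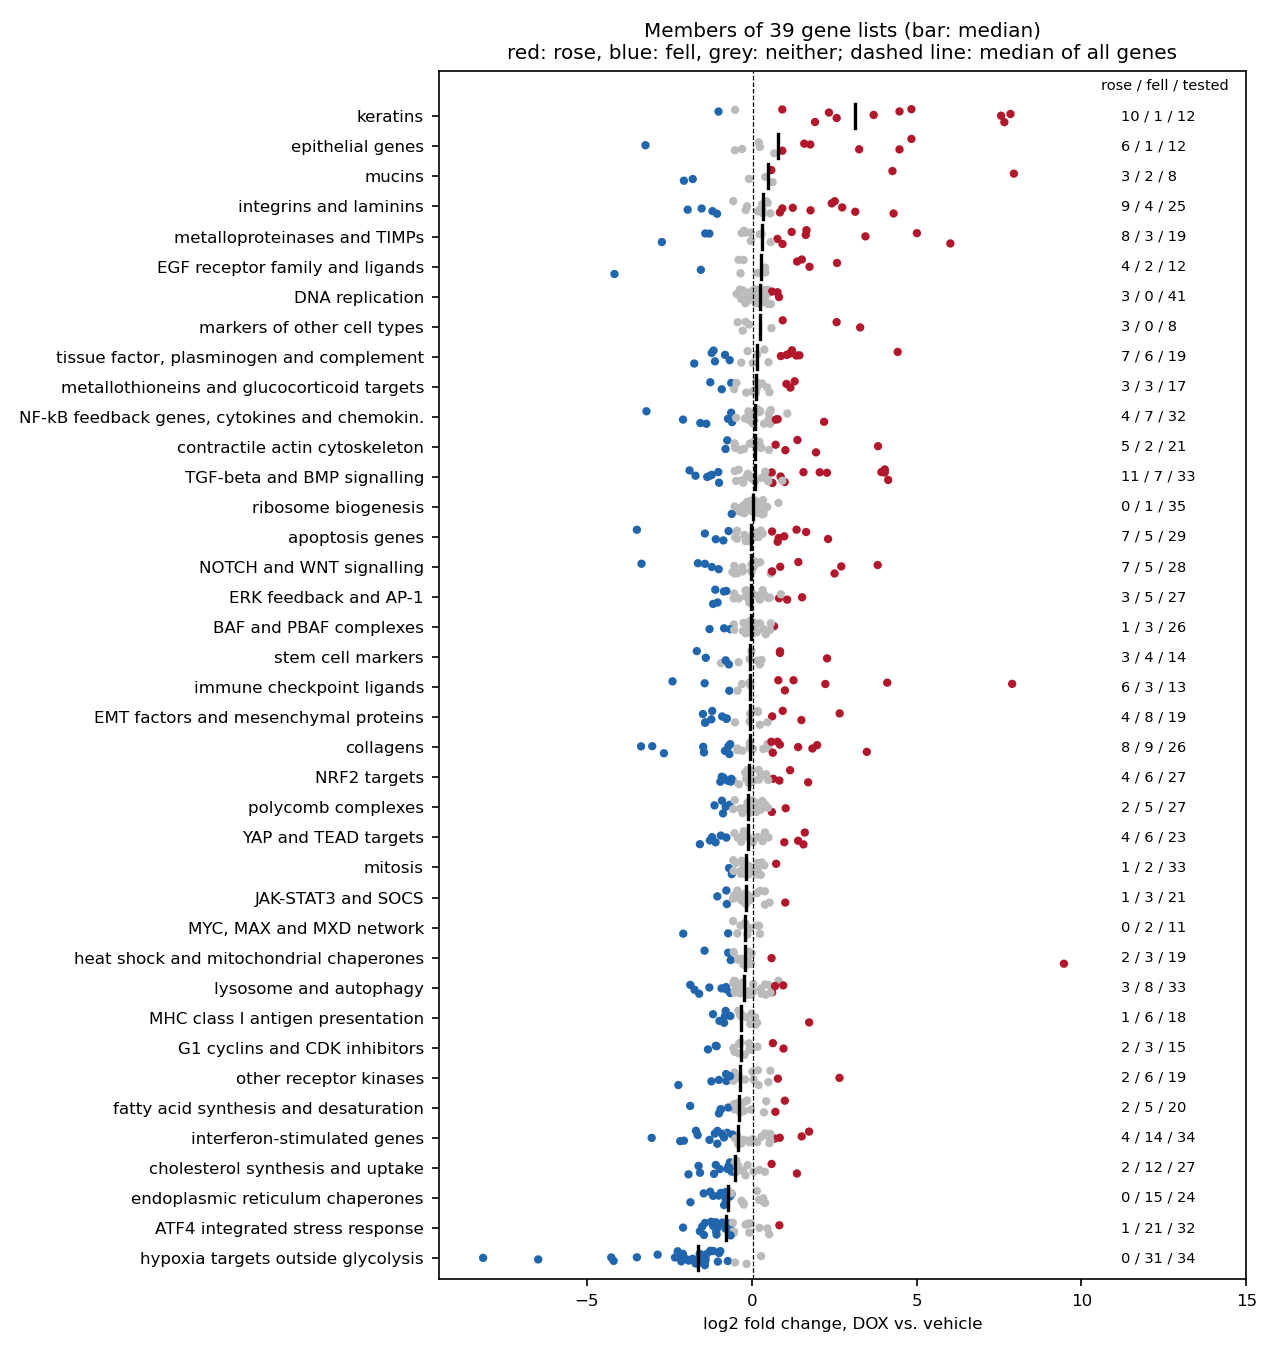
Each row is 1 of 39 gene lists, ordered by the median log2 fold change of its tested members (black bar), with a point for each member, red if it rose, blue if it fell and grey otherwise, on an x axis of log2 fold change. The numbers at the right give members that rose, fell and were tested; the hypoxia list is lowest at -1.62 and keratins highest at 3.14, and the dashed line marks the median of all genes, 0.02.

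TGF-β, activin and BMP ligands signal through paired receptor kinases and SMAD proteins, which induce the ID genes and the feedback genes SKIL and SMAD7. Of 33 tested genes of this pathway 11 rose and 7 fell, with a median log2 fold change of 0.10. Ligands were among the strongest changes. INHBA, the activin A subunit, rose from 18.1, 15.6 and 19.0 CPM to 297, 277 and 290 CPM (log2 fold change 4.03, standard error 0.06, adjusted p = 1.18e-20), BMP2 from 2.14, 2.84 and 2.36 CPM to 42.9, 37.9 and 39.9 CPM, and BMP6 from 0.862, 1.28 and 1.12 CPM to 20.5, 19.5 and 17.9 CPM. TGFB2 rose by 1.57 on the log2 scale, but TGFB1 and BMP7 fell by 1.27 and 1.71. Among receptors, TGFBR1 fell from 187.0 to 202.8 CPM to 71.6 to 80.3 CPM, whereas TGFBR2, BMPR2 and BMPR1B, chosen after their values were seen, rose with log2 fold changes of 0.63, 0.61 and 0.88, and the decoy receptor BAMBI rose from 0.209 to 0.393 CPM to 4.53 to 5.15 CPM. Of the targets, named after their values were seen, ID1 and ID3 rose (log2 fold changes 1.0 and 2.28) and ID2 fell (-1.01), SKIL rose by 2.06, and SMAD7 had a log2 fold change of 0.31 and SMAD3 of 0.01.

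NOTCH and WNT genes rose in 7 and fell in 5 of 28. NOTCH3 fell from 46.3, 44.3 and 44 CPM to 4.41, 5.25 and 3.32 CPM (log2 fold change -3.34, standard error 0.10, adjusted p = 2.18e-16), NOTCH1 from 33.3, 28.0 and 29.3 CPM to 10.5, 11.4 and 12 CPM, and their target HEY1 by 1.63 on the log2 scale, whereas NRARP, another target, chosen after its values were seen, rose by 0.60. In the WNT pathway the ligand WNT7B, the receptor FZD8 and the secreted inhibitor DKK1 rose with log2 fold changes of 3.82, 2.51 and 2.71, TCF7 rose by 0.86 and the receptor FZD1 fell by 1.0.

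Of 12 tested EGF receptor family genes 4 rose and 2 fell, and the rises were ligands: NRG1 (from 63.1 to 65.7 CPM to 180 to 189 CPM), AREG (from 2.02 to 2.32 CPM to 7.21 to 7.61 CPM), HBEGF and, chosen after its values were seen, BTC, which reached 0.641 CPM. ERRFI1, the feedback inhibitor of EGFR, fell from 1071, 924 and 963 CPM to 329, 368 and 317 CPM (log2 fold change -1.54), and the ligand NRG3, also named later, fell from 1.47 to 0.0682 CPM. The receptors moved little, with log2 fold changes of 0.18 for EGFR and -0.25 for ERBB2. Of the other receptor kinases 6 of 19 fell and KDR and MERTK rose, and 4 rose with library size alone or without vehicle replicate 1, vehicle replicate 3 or DOX replicate 3. FGFR4 fell by 2.22, EPHA4 by 1.22, PDGFRA by 0.99 and TYRO3 by 0.78 on the log2 scale.

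Downstream of these receptors, genes of ERK feedback and AP-1 rose in 3 and fell in 5 of 27, and 5 rose with library size alone. DUSP6, the ERK phosphatase, rose from 55.3, 58.7 and 61.6 CPM to 166, 178 and 162 CPM (log2 fold change 1.53, adjusted p = 1.21e-15), SPRY4 rose by 0.83, and SPRY1 and SPRY2, feedback inhibitors like SPRY4, fell by 0.84 and 1.04. EGR3 rose at a low level. ATF3, JUND and PHLDA1 fell, and EGR1 and FOSL1 did not pass the fold limit (log2 fold changes -0.54 and -0.08). DUSP6 has 28.6% of its exon bases opposite another gene.

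Interferon-stimulated genes are the antiviral set that interferon receptors switch on. Of 34 tested 14 fell and 4 rose, with a median log2 fold change of -0.43. IFITM2, which blocks the entry of viruses, fell from 6.71, 9.45 and 7.11 CPM to 0.825, 0.985 and 1.03 CPM (log2 fold change -3.04, adjusted p = 4.80e-12), and IFITM1, IFIT2 and DDX60 fell by 1.12 to 1.64 on the log2 scale. The RNA sensors RIGI and IFIH1 rose instead, IFIH1 from 1.83, 1.71 and 2.04 CPM to 6.04, 6.13 and 6.56 CPM, with IRF1 and SAMD9. With library size alone 8 rose and 11 fell. Of 18 genes of MHC class I antigen presentation 6 fell and NLRC5, chosen later, rose from 0.381 to 1.27 CPM. HLA-E fell from 19.9, 15.1 and 16.4 CPM to 9.32, 8.33 and 8.34 CPM. B2M had a log2 fold change of -0.33. The log2 fold change of HLA-C went from -0.81 to -0.17 without vehicle replicate 1 (adjusted p = 0.662) and to -0.58 without DOX replicate 1 (adjusted p = 0.213).

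Among NF-κB feedback genes, cytokines and chemokines 7 fell and 4 rose of 32 tested, and without vehicle replicate 2 the falls numbered 4. CXCL8, the neutrophil chemokine IL-8, fell from 148, 125 and 142 CPM to 32.6, 34.6 and 30.4 CPM (log2 fold change -2.08, standard error 0.06, adjusted p = 1.99e-16), and IL6 from 16.0, 19.4 and 16.5 CPM to 5.50, 6.98 and 4.94 CPM. RELA, the p65 subunit of NF-κB, fell by 0.62 on the log2 scale, and the subunit REL and the inhibitor BIRC3 rose by 0.62 and 0.79. CCL2 fell from about 1 CPM, and its call was lost without vehicle replicate 2 or 3 (adjusted p 0.149 and 0.100). Of 21 JAK-STAT3 genes IL6R rose and the kinases PIM2 and PIM3 and the receptor LIFR fell, while STAT3 had a log2 fold change of 0.15. Without DOX replicate 2, 5 of them fell, and 2 rose without vehicle replicate 3 or with library size alone.

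Of 13 tested immune checkpoint ligands 6 rose and 3 fell. Of the rises CD86, with no vehicle counts, and HHLA2, with at most 0.142 CPM in a vehicle library, were tested only because of their DOX libraries, and 3 rose where each library had to hold 10 counts. CD274, which encodes PD-L1, rose from 4.41, 4.24 and 4.04 CPM to 8.39, 8.06 and 9.04 CPM (log2 fold change 1.0, standard error 0.11, adjusted p = 1.57e-07), PDCD1LG2 (PD-L2) from 3.24, 2.79 and 2.87 CPM to 6.58, 7.09 and 7.75 CPM, and the tryptophan-degrading enzyme IDO1 from 0.183, 0.284 and 0.471 CPM to 5.84, 4.87 and 6.27 CPM. ICOSLG fell from 3.36 to 3.66 CPM to 0.562 to 0.753 CPM, the galectin LGALS3 from 628 to 782 CPM to 239 to 281 CPM, and CD276 (B7-H3) fell by 0.68 on the log2 scale.

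Proliferation genes changed little. Of 41 DNA replication genes 3 rose, CCNE2 and GINS4 among them, and 0 fell, with a median log2 fold change of 0.26, and 7 rose with library size alone. CCNE2 has 37.1% of its exon bases opposite another gene. PCNA, the sliding clamp of DNA polymerase, had 106, 109 and 114 CPM with vehicle and 149, 145 and 143 CPM with DOX (log2 fold change 0.41). MCM2 and E2F1 had log2 fold changes of 0.12 and 0.32. Of 33 mitosis genes NDC80, of the kinetochore, rose and the cyclins CCNA2 and CCNB2 fell, with a median of -0.17 (1 fell without DOX replicate 3 and 0 with library size alone), and CCNB1, CDK1 and MKI67 had log2 fold changes of -0.22, 0.07 and 0.14. In G1, the kinase CDK6 rose from 204, 204 and 214 CPM to 406, 390 and 416 CPM (log2 fold change 0.96, adjusted p = 6.90e-14) and its partner CCND1 from 121, 129 and 126 CPM to 199, 196 and 192 CPM. CDKN2D, an inhibitor of CDK6, CCND2 and the pocket protein RBL1 fell by 1.06 to 1.33 on the log2 scale, and CDKN1A, which encodes p21, had a log2 fold change of -0.01 (0.16 with library size alone).

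Of 29 tested apoptosis genes 7 rose and 5 fell. The death receptors TNFRSF10A and FAS rose, TNFRSF10A from 22, 20.2 and 22.6 CPM to 67.7, 69.0 and 66.5 CPM (log2 fold change 1.65), with the proapoptotic BMF and the antiapoptotic BCL2 (log2 fold changes 0.99 and 0.82). APAF1, the scaffold of the apoptosome, and the decoy receptor TNFRSF10D fell by 1.09 and 0.86 on the log2 scale. In the MYC network MXI1 and MXD1, antagonists of MYC, fell by 2.08 and 0.72 and 0 of 11 rose, and 1 fell with library size alone. MYC itself had 241, 256 and 238 CPM with vehicle and 296, 296 and 281 CPM with DOX, a log2 fold change of 0.25 (adjusted p = 5.01e-05) that stayed below the fold limit. FBL, the methyltransferase of nucleolar RNA, was the only 1 of 35 ribosome biogenesis genes that fell, and 0 rose. Without DOX replicate 3 it no longer passed the fold limit, and 1 gene rose without vehicle replicate 3 or DOX replicate 2 and 3 with library size alone.

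Chromatin genes tied to MUC1-C were counted in a pair of lists. Of 27 polycomb genes JARID2 and CBX6 rose and PHF1, RNF2, PHC3, BMI1 and AEBP2 fell. RNF2, the ubiquitin ligase of polycomb complex PRC1, fell from 166 to 174 CPM to 90.2 to 91.6 CPM (log2 fold change -0.90), and EZH2, the methyltransferase of PRC2, had a log2 fold change of 0.32. Of 26 BAF and PBAF subunits SMARCA2 rose and BCL7A, SMARCD3 and PHF10 fell, and 3 rose without vehicle replicate 3 or without DOX replicate 3, 2 without DOX replicate 2 and 4 with library size alone. The ATPase SMARCA4, ARID1A and PBRM1 had log2 fold changes of -0.25, 0.01 and -0.16, the last of which became 0.00 with library size alone.

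The tet-MYCshRNA mammospheres received the same dose of DOX against another target, and their 6 libraries are shared with no group above. The difference between the DOX effects of both lines (tet-MUC1shRNA minus tet-MYCshRNA) was tested with an interaction term in a fit of 12 libraries. It had an adjusted p below 0.1 and a log2 difference beyond 1.5 in 16.2% of 21585 genes. It was above that limit in 7.59% and below it in 8.56%. Across the 18198 genes tested in both lines, the log2 fold changes had a Pearson correlation of 0.11, given as a description. Of 1370 genes called on MUC1 silencing and 1699 called in the MYC line among them, 251 had the same direction (18.3% and 14.8% of the lists) and 136 the opposite one (9.93% and 8.01%).

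MYC had 388 to 445 CPM in the vehicle libraries of this line and 240 to 292 CPM with DOX, a log2 fold change of -0.62 (standard error 0.08), a smaller fall than that of MUC1 in its own line. CPM given for the MYC line are scaled over the 12 libraries. MUC1 itself rose in the MYC line (log2 fold change 1.25), so the DOX effects on it differed by -3.33 (adjusted p = 6.20e-12). By the rule for lists, 20.6% of all genes tested in the MYC line rose and 17.1% fell. In the hypoxia list the MYC line had 5 rises and 9 falls with a median of 0.00, and the difference was below the limit for 20 of 34 genes and above it for 0. For CA9 it was -6.50 (adjusted p = 1.03e-10), for NDRG1 -3.71 and for VEGFA -1.67. In the ER list the difference was below the limit for 5 of 24 genes, HSPA5 among them (-1.73), and in the ATF4 list for 8 of 32. Interferon-stimulated genes, of which 39 of 40 rose in the MYC line, had a difference below the limit in 32 of 41.

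Of the ligands that rose on MUC1 silencing, TGFB2 also rose in the MYC line (log2 fold change 2.33). INHBA had a log2 fold change there of -0.02, BMP2 of -1.26 and BMP6 of -1.30, and the differences were 4.04, 5.29 and 5.42 (adjusted p = 1.57e-14, 5.32e-14 and 9.23e-12). THBS1 differed by 4.03 (adjusted p = 6.30e-15) and CALD1, which rose in both lines, by 2.61. KRT5 and KRT7 rose with DOX in both lines, with log2 fold changes of 3.65 and 2.06 in the MYC line, and their differences of 0.03 (standard error 0.27) and -0.15 (standard error 0.16) had adjusted p-values of 0.938 and 0.472. MUCL1 had at most 0.0795 CPM in a vehicle library of the MYC line and 0.375 to 1.24 CPM with DOX there. It was tested in that line only because of its DOX libraries, so the direction of its log2 fold change of 3.50 was fixed by the filter. The difference of the DOX effects on MUCL1 was 4.42 (adjusted p = 0.00088). ZEB1, ZEB2 and TWIST1 had log2 fold changes of 0.16, 0.45 and 0.81 in the MYC line and differences of -1.59, -1.94 and -2.03. DNA replication genes fell in 30 of 41 in the MYC line and in 0 of 41 here, and the difference was above the limit for 7 of them.

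**Figure D5:**
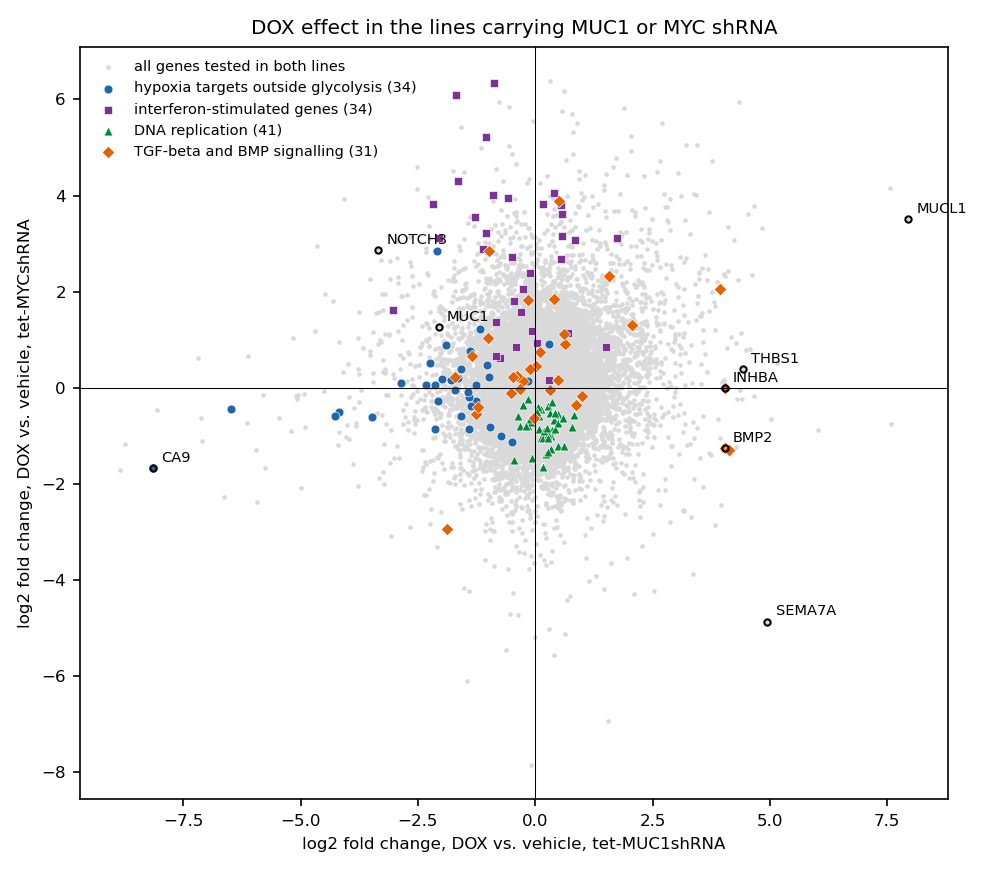
Each point is a gene tested in both lines, with its log2 fold change (DOX vs. vehicle) in tet-MUC1shRNA mammospheres on the x axis and in tet-MYCshRNA mammospheres on the y axis, and colors mark 4 lists. Hypoxia targets other than EPAS1 lie to the left of 0, and the list has a median of -1.62 on the x axis and 0.00 on the y axis, interferon-stimulated genes lie above 0 on the y axis, and DNA replication genes lie below it.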

How the data were processed

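RNA-seq of stranded paired-end libraries was aligned by the authors to GRCh38 with STAR, and reads were assigned to genes with featureCounts. The deposited values are raw counts per gene and library, not normalized, and the annotation release and strand setting are not given in the sources used here. The submitters' processing notes name STAR 2.7.3a and CASAVA 1.8.2. Groups were taken from the sample labels. Genes kept by filterByExpr were tested with edgeR 4.0.16 (R 4.3.3), with TMM factors and the quasi-likelihood F-test, and p-values were adjusted by Benjamini and Hochberg's method. The main fit held the 6 tet-MUC1shRNA libraries, and the difference between lines was an interaction over 12 libraries. Calls needed an adjusted p below 0.1 with a log2 fold change beyond 1.5 in either direction, and lists were counted at a fold change above 1.5.

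Named genes were MUC1, the 12 largest rises and falls among called genes with a mean normalized count of at least 100 and separate groups, the 8 largest in CPM, up to 4 members per list and direction at a mean CPM of at least 1 with preset key members, and up to 5 genes per direction with at most 3 counts in each library of one group and at least 30 in the other. Others are said to be chosen after their values were seen. Some genes that enter the counts are not reported here by name. The members and lists were chosen with earlier results of these data known. Alternatives were DESeq2 1.42.0, RLE factors, library size alone, leaving out mtDNA genes, other filters and thresholds, all 21 libraries, a replicate block and leaving out each library. On counts simulated for this comparison (18672 genes, 200 of them changed by 2 on the log2 scale), 90.5% of changed genes were called. Promoters were RefSeq sequences of GRCh38.p14, searched on both strands. Counting intervals and floors cover counting error only.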

Additional observations from a re-analysis of the deposited data

Results flagged for a closer look

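Of 42 named genes called in both lines (adjusted p below 0.1 and a log2 fold change beyond 1.5 in each), 20 had opposite directions in the tet-MUC1shRNA and tet-MYCshRNA mammospheres, against 136 opposite and 251 like directions among all genes. They were picked for this, so the differences between the effects (tet-MUC1shRNA minus tet-MYCshRNA, log2 scale) are descriptions. The vehicle libraries of the lines did not overlap in 19 of the 20, and in 19 the line in which the gene fell had the higher vehicle mean. The lines also differed in passage, which cannot be told apart from the target of the shRNA. SEMA7A rose with DOX in the tet-MUC1shRNA line and fell in the other (log2 fold changes 4.95 and -4.87), with a difference of 9.81. WNT7B, TNFRSF10A and MECOM, a zinc finger transcription factor chosen after its values were seen, went the same way, with differences of 6.65, 4.01 and 6.01.

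The others fell with MUC1 silencing and rose in the MYC line. Interferon-stimulated genes were 5 of them, with differences of -7.83 for MX1, -6.00 for IFI44, -5.95 for IFITM1, -5.17 for IFI44L and -4.67 for IFITM2. NOTCH3 had log2 fold changes of -3.34 and 2.86, a difference of -6.24, and vehicle libraries at 44.5 to 46.9 CPM in the tet-MUC1shRNA line and 2.97 to 3.74 CPM in the other. CPM in this section are scaled over the 12 libraries of both lines, so they differ slightly from those scaled over 6. Genes of the matrix, its receptors and complement had differences of -6.46 for SPOCK3, -6.28 for SERPING1, -5.99 for LRP1, -5.30 for COL15A1 and -4.66 for MMP11. SPOCK3 had at most 0.0689 CPM in a DOX library of the tet-MUC1shRNA line and at most 0.216 CPM in a vehicle library of the other. MX1, IFI44, IFI44L and MMP11 had at most 0.428 CPM in a DOX library of the tet-MUC1shRNA line. The size of these differences is therefore uncertain. The potassium channel KCND1 differed by -6.11, with vehicle libraries at 69.8 to 87.4 CPM and 0.728 to 1.15 CPM, and HIF3A by -4.96. The lysosomal hydrolases GAA and NEU1 differed by -4.38 and -3.19, and CD24 by -3.25.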

How the results depend on the processing

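Without a filter on low counts 2606 genes were called, 1847 of them higher, and where each library had to hold 10 counts or more, 820 were called, 458 higher and 362 lower, from fewer genes tested. With a fold change above 1.5 the numbers were 6185, 3378 and 2807. Leaving out 1 library at a time gave 1854 to 2153 called genes, 1212 to 1511 higher and 608 to 686 lower, a MUC1 log2 fold change of -2.12 to -1.97, and 3468 to 3863 genes that differed between the lines. DESeq2 called 2288 genes, of which 1648 were shared with the 1695 of edgeR. Library size alone shifted the median of all genes by 0.17 and raised the share of higher calls from 65.1% to 74.7%. It turned the sign of 2 list medians (EMT 0.10, NRF2 targets 0.0797) and of 5 genes, CD44 (0.16), FOSL1 (0.0903), CDKN1A (0.16), PBRM1 (0.0034) and HIF1A (0.0101), none of which passed the fold limit. It also left 3 of 18 MHC class I genes falling in place of 6, and 8 rising and 4 falling NF-κB genes in place of 4 and 7. Of 344 named genes other than MUC1, 317 kept their direction and their side of the threshold in every alternative run and 27 did not. Of the list counts, 23 of 468 values obtained with 1 library left out moved by over 1.5 times, all in counts whose moved value was at most 5. Same-numbered cultures had correlations of 0.0421, -0.044 and 0.0549 in their deviations from the group means. Whether they shared an origin was not tested, and the labels do not say how the cultures were split. With the replicate block 1726 genes were called, 1129 higher and 597 lower, MUC1 had a log2 fold change of -2.05, and 3305 genes differed between the lines.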
